A study of Mus musculus with 278 samples.

Results

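Single adult basal cells were compared with single adult luminal cells of the mouse mammary gland over all named genes, and the differences were then read by gene function beyond the keratins and smooth muscle contractile genes by which these cells are usually told apart. The members were the libraries titled adult basal that held 50000 or more reads and 1000 or more genes, and the libraries titled adult luminal that held 100000 or more reads and 1500 or more genes. Mitochondrial, ribosomal and unnamed genes were left out of these counts. The comparison used 124 of the 278 cells of the series, 85 of 112 adult basal cells and 39 of 43 adult luminal cells. All came from untreated FVB/NJ adult glands, were sorted fresh, and were captured 1 to a site on the Fluidigm C1 instrument, which makes a separate cDNA library from each cell. Per the study's methods, both sorts were depleted of blood and endothelial cells and were positive for CD24, with high surface CD29 for the basal gate and low CD29 for the luminal gate, and glands of several mice were pooled. The labels tie no cell to an animal, so each sort counts as 1 sample and cells are not replicates of it. No test was therefore run, and differences are described by size. The 95% intervals cover counting error only, of reads for ratios and of cells for shares.

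The mammary duct is built of an inner luminal layer, which faces the lumen and holds the hormone-sensing and the milk-forming cells, and an outer basal layer, mostly myoepithelial cells, which lies on the basement membrane and contracts in answer to oxytocin. Basal cells secrete much of the basement membrane and signal to the luminal layer, while luminal cells seal the lumen with tight junctions, move salt and solutes across the layer and read circulating hormones such as prolactin and oestrogen. Luminal cells of the adult gland are themselves a mixture of mature and progenitor cells, so a gene seen in part of this sort need not be shared by all of it.

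Reads per retained cell ran from 67170 to 1290756 with a median of 378478 in the basal sort, and from 173157 to 1006323 with a median of 638196 in the luminal sort. After every cell was thinned to 50000 reads, basal cells held 926 to 4201 genes with a median of 2247, and luminal cells 2044 to 5106 with a median of 3454. The shares of cells with a read, given throughout at this common depth, therefore lean towards luminal cells over all genes, and the median difference over the 13279 tested genes was -6.73 percentage points. Next to the minimums, basal cell 111 held 46811 reads in 2244 genes and was left out, while the shallowest retained basal cell held 67170 reads. Luminal cells 15 and 17 held 1474 and 1375 genes and luminal cell 41 held 42413 reads, and all were left out. The shallowest retained luminal cell held 173157 reads.

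The labels held against the marker genes, with exceptions among single cells. Of 6 basal markers, 83 of 85 basal cells and 1 of 39 luminal cells detected 3 or more. Of 8 luminal markers, 39 of 39 luminal cells did so, as did 41 of 85 basal cells, which mostly carried reads of Krt8, Krt18 and Epcam. Acta2, the smooth muscle actin, was found in 100% (95.8 to 100) of basal and 5.13% (0.627 to 17.3) of luminal cells. Foxa1, a luminal transcription factor, was found in 0 of 85 basal cells, which by a floor of 3 cells allows a share of up to 3.53%, and in 51.3% (34.8 to 67.6) of luminal cells. Fibroblast markers were the main sign of another cell type. At least 3 of 6 were detected in 5 luminal cells and in 0 basal cells, and their summed level reached 33902 CPM in 1 luminal cell. The highest basal value was 3042 CPM, and the medians were 0 in both sorts. At least 3 of 5 endothelial markers were detected in 2 luminal cells, and 3 of 5 immune markers in 1 basal cell (cell 19). The pericyte markers Rgs5 and Kcnj8 and the erythroid marker Hbb-bs had no read in either sort. Other pericyte, erythroid and Schwann cell markers did have reads in the full libraries. The pericyte marker Notch3 lacked reads in 82 of 85 basal and 21 of 39 luminal cells. For the erythroid marker Hba-a1 these numbers were 85 and 28, and for the Schwann cell marker Sox10 52 and 21. At least 3 of 5 Schwann cell markers were detected in 0 cells. A log2 ratio of a called gene, or a list, that moves by more than 1.5 times without 8 doubted cells is also given without them. These were basal cell 19, the luminal cells 5, 11, 26, 27, 33 and 43 with fibroblast or endothelial markers, and luminal cell 35, the 1 luminal cell with 3 or more basal markers. This exclusion was chosen with the values known. It was not even on both sides, since the 41 basal cells with 3 or more luminal markers were kept. Leaving out luminal cells by basal and fibroblast markers tends to lower luminal reads of those markers and of genes expressed with them. Higher basal ratios without the doubted cells are therefore not separate support. Lists are likewise given for the 48 basal cells that held at least the genes of the lowest luminal cell, here called gene-rich, against all luminal cells.

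A gene was called higher in a sort where its summed CPM, reads scaled to a common total per sort, differed by 2 or more on the log2 scale (a log2 ratio above 0 means higher in basal cells) and where its share of cells was also 20 or more percentage points higher in that sort. By this rule 255 genes were higher in basal cells, 1.92% of the genes tested, and 714 were higher in luminal cells, 5.38%, so that 7.3% were called in either direction. Without the 8 doubted cells the counts were 350 and 760, and 251 and 648 of the genes were called both times. In basal cells 11.8% of reads came from the 255 genes, against 0.851% in luminal cells. The 714 genes took up 12.8% of luminal and 1.03% of basal reads. No read at all was seen in luminal cells for 19 of the 255 genes, or in basal cells for 80 of the 714. As a percentage of the called genes, more of the basal set was broadly shared within its sort. At least 50% of basal cells detected 122 of the 255 (47.8%), and at least 50% of luminal cells detected 204 of the 714 (28.6%). By number, more luminal than basal genes reached 50% of cells, so the contrast is one of percentages of the called sets. At 80% of cells the numbers were 47 and 39. Ratios often leaned on 1 cell, since 166 of the 255 moved by more than 1.5 times without the luminal cell that held most reads of the gene, which was luminal cell 35 for 56 of them, and 438 of the 714 moved likewise without the fullest basal cell. For called genes named with a ratio, the ratio without such a cell is given beside the main one. A gene found in 0 cells at the common depth can still have reads in the full libraries, on which the ratios rest. In the paragraphs that follow, genes that lose their call under another setting are named at the end. The plot of detection in both sorts shows this difference as a dense band of luminal genes at low to middle shares and a sparser basal group that reaches the top left corner.

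**Figure D1:**
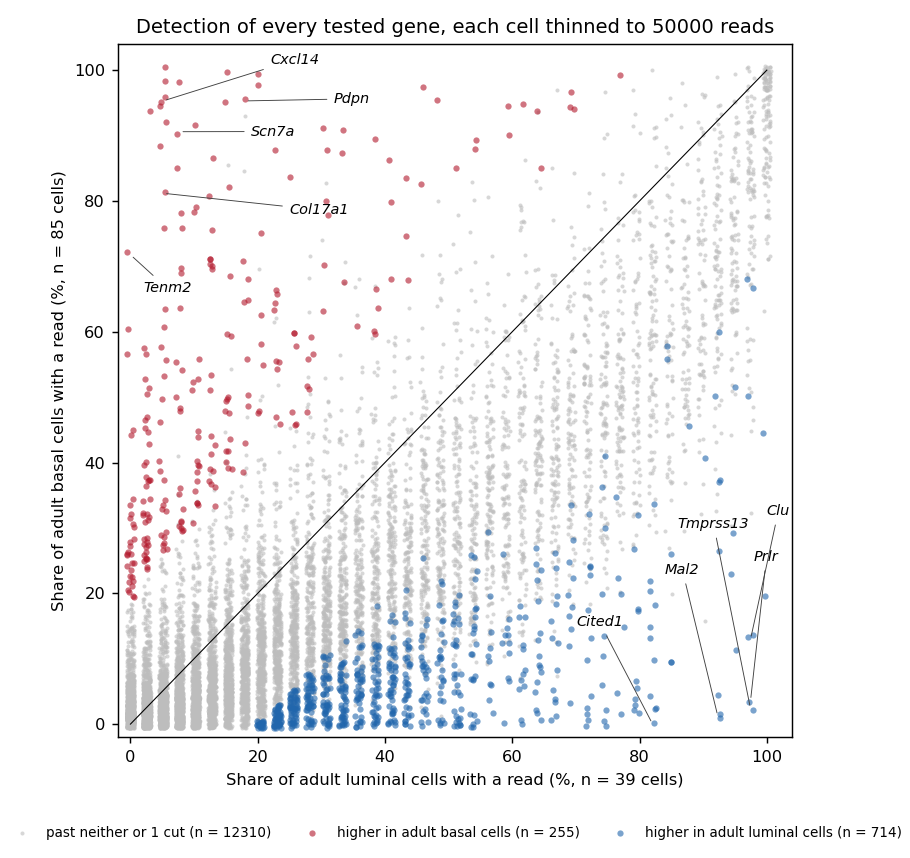
Each point is 1 of 13279 tested genes, placed by the share of adult luminal cells (x axis, %, n = 39) and adult basal cells (y axis, %, n = 85) with a read after thinning to 50000 reads, with a small jitter. Genes called higher in basal cells (255, red) and in luminal cells (714, blue) lie off the diagonal, and the grey cloud sits mostly below it, as the median share difference of -6.73 points states.

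Outside the classic list, the 12 genes with the largest share differences in favour of basal cells coded mostly for proteins that are secreted or sit at the cell surface. Cxcl14, a chemokine, was found in 95.3% (88.4 to 98.7) of basal and 5.13% (0.627 to 17.3) of luminal cells. Its level in single cells, as lowest, median and highest CPM, was 0, 116 and 1479 in the basal sort and 0, 0 and 41.8 in the luminal sort. Of 85 basal cells, 66 lay above the highest luminal cell, and nearly all luminal reads of Cxcl14 lay in cell 35 alone, a doubted cell. The log2 ratio was 6.86 (6.37 to 7.41, 10.82 without luminal cell 35, 10.59 (8.74 to 13.64) without the doubted cells). Ltbp2, a latent TGF-beta binding protein of microfibrils, was found in 94.1% (86.8 to 98.1) and 5.13% (0.627 to 17.3). Its single-cell levels were 0, 639 and 5568 CPM in basal cells and 0, 0 and 81.3 CPM in luminal cells, with a log2 ratio of 7.61 (7.32 to 7.92, 9.62 without luminal cell 37). Scn7a, which codes for the atypical sodium channel Nax, was found in 90.6% (82.3 to 95.8) and 7.69% (1.62 to 20.9). Its levels were 0, 1656 and 15020 CPM and 0, 0 and 452 CPM, with a log2 ratio of 7.18 (7.04 to 7.33, 10.99 without luminal cell 33, 12.57 without the doubted cells). For Ltbp2 71 and for Scn7a 69 of 85 basal cells lay above the highest luminal cell, and the rest overlapped the luminal range.

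Matrix and adhesion genes followed. Postn, the matricellular protein periostin, was found in 95.3% of basal and 15.4% of luminal cells, and its log2 ratio was 8.44 (8.29 to 8.59), and 10.21 without luminal cell 35 and 12.77 without the doubted cells. Sparc, a collagen-binding matricellular protein, was found in 97.6% of basal and 20.5% of luminal cells, with a log2 ratio of 2.83 (2.79 to 2.87), and 7.81 without the doubted cells. Reads of Sparc were present in some luminal cells at levels within the basal range, and the highest luminal value, in luminal cell 43, was 2162 CPM against a basal median of 1276 CPM. Col17a1, the transmembrane collagen of hemidesmosomes, was found in 81.2% of basal and 5.13% of luminal cells, a log2 ratio of 6.05 (5.8 to 6.31), and 7.32 without luminal cell 9. Lama3, a chain of the laminin that anchors hemidesmosomes, was found in 75.3% of basal and 5.13% of luminal cells, and its log2 ratio was 3.95 (3.8 to 4.1), and 5.81 without luminal cell 35 and at least 10.6 without the doubted cells. Col4a1, a basement membrane collagen chain, was found in 87.1% of basal and 12.8% of luminal cells, with a log2 ratio of 2.96 (2.89 to 3.03), and 3.6 without luminal cell 35 and 10.57 without the doubted cells. Pdpn, the mucin-type glycoprotein podoplanin, was found in 95.3% of basal and 17.9% of luminal cells, a log2 ratio of 2.73 (2.67 to 2.79), and 9.27 without the doubted cells. Rbpms, an RNA-binding protein, was seen in 84.7% of basal and 7.69% of luminal cells, and its log2 ratio was 5.32 (5.16 to 5.49), and 5.95 without luminal cell 14 and 6.28 without the doubted cells. Ecrg4, a secreted peptide precursor, had reads in 77.6% of basal and 7.69% of luminal cells, with a log2 ratio of 5.1 (4.97 to 5.23), and 8.36 without luminal cell 35 and 8.13 without the doubted cells. Tenm2, a teneurin that links nerve cells at synapses, was found in 71.8% (61.0 to 81.0) of basal cells and in 0 of 39 luminal cells at the common depth. For 0 of 39 cells the same floor of 3 cells is a share of 7.69%, and the upper 95% bound is 9.03%. A single read in all luminal cells set the log2 ratio of Tenm2 at 13.11 (10.63 to 18.41).

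The 12 genes with the largest share differences in favour of luminal cells were of several kinds. They coded for a hormone receptor, a membrane protease, tight junction and trafficking proteins, a secreted chaperone, a growth factor and gene regulators, among others. Prlr, the prolactin receptor, was found in 3.53% (0.734 to 9.97) of basal and 97.4% (86.5 to 99.9) of luminal cells, with single-cell levels of 0, 0 and 119 CPM in basal and 11.4, 4851 and 18123 CPM in luminal cells. Of 39 luminal cells, 35 stood above the highest basal cell, and the log2 ratio was -11.94 (-12.36 to -11.55, -14.48 without basal cell 35). Tmprss13, a serine protease anchored in the membrane, was found in 2.35% (0.286 to 8.24) and 97.4% (86.5 to 99.9). Its levels were 0, 0 and 68.1 CPM and 0, 612 and 2486 CPM, with a log2 ratio of -8.51 (-8.89 to -8.16, -10.4 without basal cell 93). Mal2, a raft protein needed for transport across polarised cells, was found in 1.18% (0.0298 to 6.38) and 92.3% (79.1 to 98.4), with levels of 0, 0 and 40.7 CPM and 0, 2360.1 and 8100.5 CPM. Every basal read of Mal2 came from basal cell 30. The claudins Cldn4 and Cldn7, which form tight junctions, had log2 ratios of -8.68 (-9.27 to -8.15, -9.47 without basal cell 63) and -6.2 (-6.47 to -5.93, -7.65 without basal cell 10), and both were found in 92.3% of luminal cells. Clu, the secreted chaperone clusterin, was found in 12.9% of basal and 97.4% of luminal cells, a log2 ratio of -5.93 (-6.01 to -5.84), and -6.71 without basal cell 79. Tmc4, a member of the transmembrane channel-like family, was found in 14.1% of basal and 97.4% of luminal cells, and its log2 ratio was -4.23 (-4.34 to -4.12).

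Among regulators, Cited1, a coactivator of CBP and p300 that carries no DNA-binding domain, had no read in basal cells and was found in 82.1% (66.5 to 92.5) of luminal cells, for a log2 ratio of -13.39 or below. Rbm47, an RNA-binding protein of epithelial cells, was found in 11.8% of basal and 94.9% of luminal cells, with a log2 ratio of -4.9 (-5.04 to -4.77). Areg, the growth factor amphiregulin, was found in 2.35% of basal and 82.1% of luminal cells, a log2 ratio of -10.98 (-11.79 to -10.28), and -14.98 without basal cell 91. Cystm1 was found in 2.35% of basal and 82.1% of luminal cells, and its log2 ratio was -6.94 (-7.39 to -6.53), and -7.69 without basal cell 67. AW112010 was found in 1.18% and 79.5%, with every basal read in basal cell 19. The single-cell plot of these 24 genes shows the basal genes near 0 in most luminal cells and the luminal genes near 0 in most basal cells, with a spread within the expressing sort that is wide on the log scale.

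**Figure D2:**
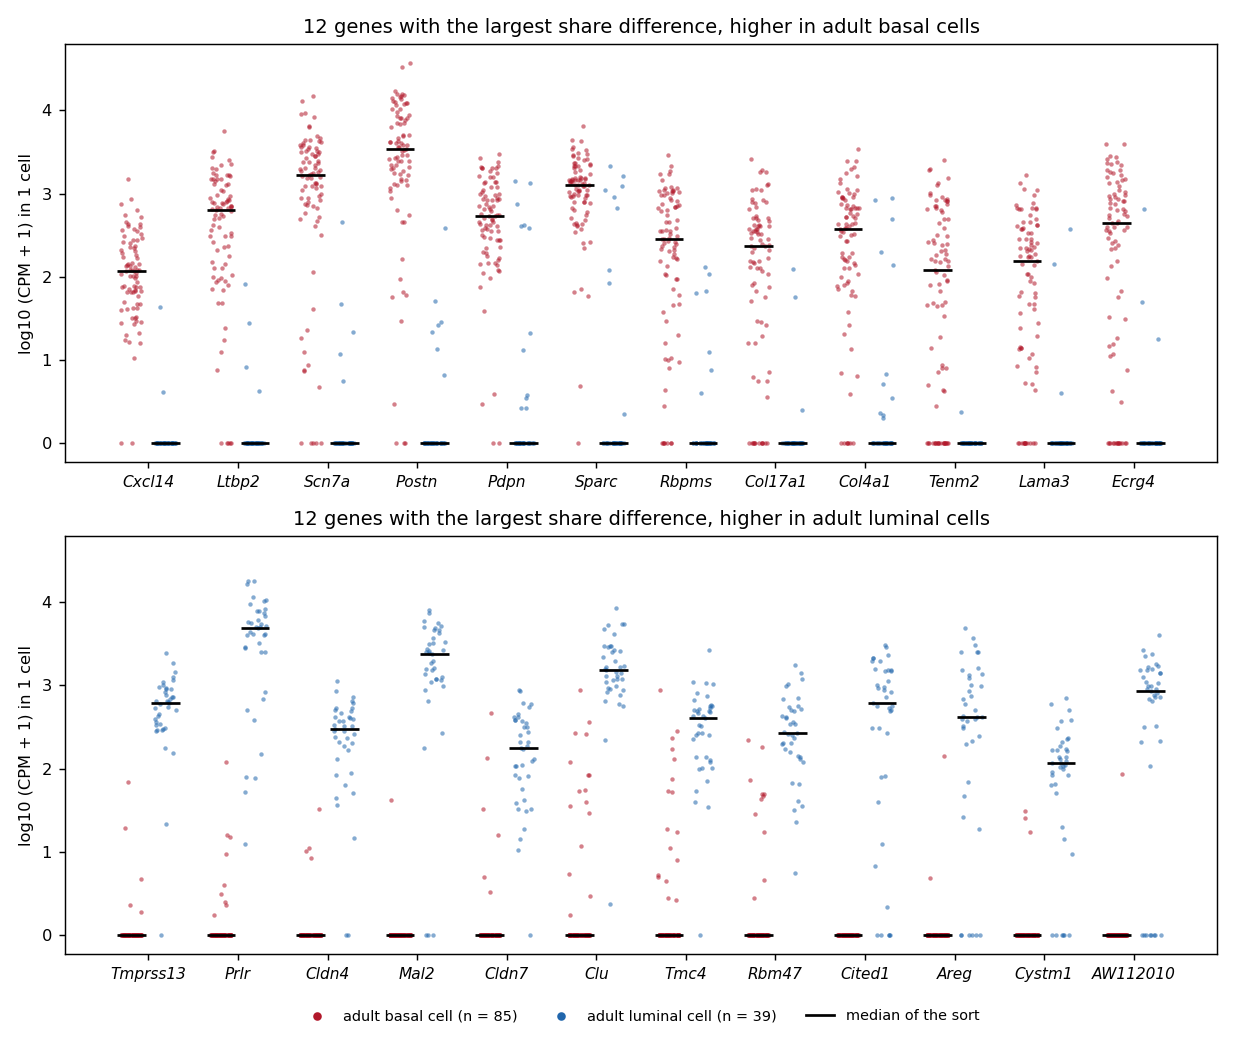
Each point is 1 adult cell (red, basal, n = 85; blue, luminal, n = 39), with the log10 of CPM plus 1 on the y axis and the median of each sort as a black line, for the 12 genes per sort with the largest difference in the share of cells. The medians of the other sort lie at 0 for all 24 genes, and single cells of the other sort reach into the range, such as 1402 CPM of Pdpn in luminal cell 26, a doubted cell with fibroblast markers.

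The 100 bases before the start site are given for Col17a1, Tenm2, Prlr, Areg and Cited1, 2 leading basal and 3 leading luminal genes, because a TATA box (TATAAA) lies in this stretch in genes of either sort and is missing in others. Sequences are RefSeq, build GRCm38.p6, and lie at chr19:47692043-47692142, minus strand (Col17a1), chr11:36944242-36944341, minus strand (Tenm2), chr15:10177138-10177237, plus strand (Prlr), chr5:91139499-91139598, plus strand (Areg) and chrX:102252182-102252281, minus strand (Cited1). Capitals mark matches on either strand to the TATA, CCAAT, CArG and GC boxes, the ETS core and the RUNX and GATA sites. Their letters or names are given with their shares in the next paragraph, and neighbouring matches run together. Other searched motifs were left in lower case, among them a cyclic AMP response element and a SNAI E-box in the Areg stretch.
Col17a1: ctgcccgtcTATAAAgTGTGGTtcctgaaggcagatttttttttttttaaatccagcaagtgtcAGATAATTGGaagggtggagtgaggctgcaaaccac
Tenm2: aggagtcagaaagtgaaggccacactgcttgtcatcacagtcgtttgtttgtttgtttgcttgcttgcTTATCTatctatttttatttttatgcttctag
Prlr: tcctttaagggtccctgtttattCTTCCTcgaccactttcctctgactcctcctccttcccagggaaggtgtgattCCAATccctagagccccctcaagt
Areg: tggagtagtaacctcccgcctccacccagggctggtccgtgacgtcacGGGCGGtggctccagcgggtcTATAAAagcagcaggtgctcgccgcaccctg
Cited1: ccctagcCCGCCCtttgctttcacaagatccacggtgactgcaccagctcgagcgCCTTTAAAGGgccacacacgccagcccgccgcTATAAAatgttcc

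Promoter windows of 300 bases around the start were found for 181 of the 255 basal genes, 536 of the 714 luminal genes and 10256 of the 13279 tested genes. Windows rich in CpG (GC content above 50% and an observed to expected CpG ratio above 0.6) made up 49.7% (42.2 to 57.2) of the basal genes, 61.8% (57.5 to 65.9) of the luminal genes and 67.4% of all tested genes, against 33.9% of all 27025 listed windows. Fewer basal genes than tested genes in general had a CpG-rich start. The share was 40.4% when only genes with a share difference of 40 points were taken. Of the 16 motifs searched on both strands, the TATA box was in 9.94% (6.00 to 15.3) of basal, 6.72% (4.75 to 9.18) of luminal and 7.26% of tested windows, and in 14.2% of all listed windows. The TEAD site (CATTCC), bound by the partners of YAP and TAZ, was in 17.1% (11.9 to 23.4), 12.5% (9.82 to 15.6) and 12.3% (14.6% of all listed), and the GATA site (AGATAA) in 10.5% (6.44 to 15.9), 6.53% (4.59 to 8.96) and 6.23% (11.4% of all listed). The SNAI E-box (CAGGTG) was in 19.9% (14.3 to 26.5), 23.1% (19.6 to 26.9) and 17.7% (20.0% of all listed). The p63 half-site was in 9.94% (6.00 to 15.3), 6.72% (4.75 to 9.18) and 7.11% (8.37% of all listed), and the grainyhead site (AACCGGTT) in 0 of the 181 basal windows, 0.560% (0.116 to 1.63) of luminal and 0.244% of tested windows (0.152% of all listed). For the remaining motifs the shares follow in the order basal, luminal, tested and all listed windows. The CCAAT box (CCAAT) was in 38.7%, 38.6%, 38.9% and 37.9%. The GC box (GGGCGG) was in 63.5%, 66.4%, 64.0% and 35.9%. The cyclic AMP response element (TGACGTCA) was in 1.66%, 2.99%, 3.19% and 1.88%. The AP-1 site (TGANTCA) was in 3.31%, 5.78%, 5.10% and 7.93%. The ETS core (AGGAAG) was in 31.5%, 29.1%, 32.6% and 35.1%. The forkhead site (TGTTTAC) was in 2.76%, 2.80%, 2.54% and 3.55%. The RUNX site (TGTGGT) was in 11.1%, 11.0%, 12.0% and 16.9%. The STAT5 site (TTCNNNGAA) was in 7.73%, 6.16%, 7.01% and 8.47%. The NFI palindrome was in 0%, 0%, 0.0293% and 0.0407%. The CArG box was in 2.21%, 1.49%, 1.42% and 1.57%. Intervals were compared over 16 motifs in each of the basal and luminal sets. They excluded the value of the tested genes for the GATA site in basal genes and the SNAI E-box in luminal genes. For the other motifs they held it. The GATA interval began at 6.44% beside 6.23%, and among this many intervals some exclusions can be expected from counting error alone. No test was run. A match is a run of letters and not evidence of binding.

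Basal genes spanned more of the genome. The median span, introns included, was 39.7 kb for the basal genes, 21.5 kb for the luminal genes and 22.9 kb for all tested genes, while median transcript lengths were 3.46, 2.52 and 2.83 kb. A span over 100 kb was found for 82 of 255 basal genes (32.2%, 26.5 to 38.3), 90 of 714 luminal genes (12.6%, 10.3 to 15.3) and 13.2% of the tested genes. By size class, 1.49% of genes of 10 kb or less, 1.56% of genes over 30 to 100 kb, 4.49% of genes over 100 to 300 kb and 5.49% of genes over 300 kb were called basal, whereas 5.58%, 5.04%, 5.49% and 3.76% were called luminal. The longest basal genes included Tenm2 (71.8% and 0% of cells), the cyclic GMP-dependent kinase Prkg1 (37.6% and 12.8%), the growth factor Nrg1 (54.1% and 7.69%) and the potassium channel Kcnma1 (24.7% and 0%). Among long luminal genes were Esr1, the oestrogen receptor, in 2.35% and 64.1% of cells, and Piezo2, a force-gated channel, in 2.35% and 71.8%. The curves of span in the plot part between about 10 and 300 kb. Kcnma1 lost the call with detection at 5 reads.

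**Figure D3:**
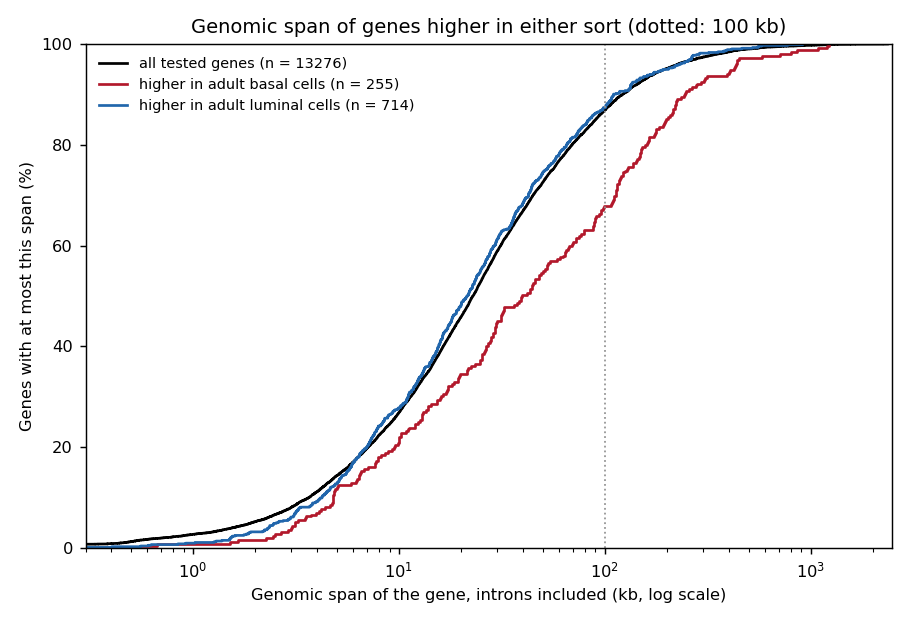
Cumulative share of genes (y axis, %) with at most the genomic span on the x axis (kb, log scale) for all tested genes (black, n = 13276 with a span), genes higher in adult basal cells (red, n = 255) and genes higher in adult luminal cells (blue, n = 714). The red curve lies below the others over most of the range and leaves 32.2% of genes beyond the dotted line at 100 kb, against 12.6% for the blue curve.

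Functions were described with 51 lists of genes. The lists were chosen with earlier results of these data known, so a list with more calls than the background is a description and not separate support. The median log2 ratio of a list is given beside that of all tested genes, which was -0.32, and counts of called genes beside the background shares of 1.92% for basal and 5.38% for luminal calls. With TMM or median-of-ratios scaling every ratio would be 0.29 or 0.31 higher, which moves the median of all genes to -0.03 and 0.00, so lists are best read relative to that median. In these terms 26 of 51 lists lay above the median of all genes. The highest medians were those of the classic keratin and contractile list (4.62, 19 of 27 genes called basal and 4 luminal), the collagens (2.79) and the ion channels (2.32). The lowest were those of secreted defence proteins (-3.23, from 11 genes tested) and of apical polarity and secretion (-1.8).

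**Figure D4:**
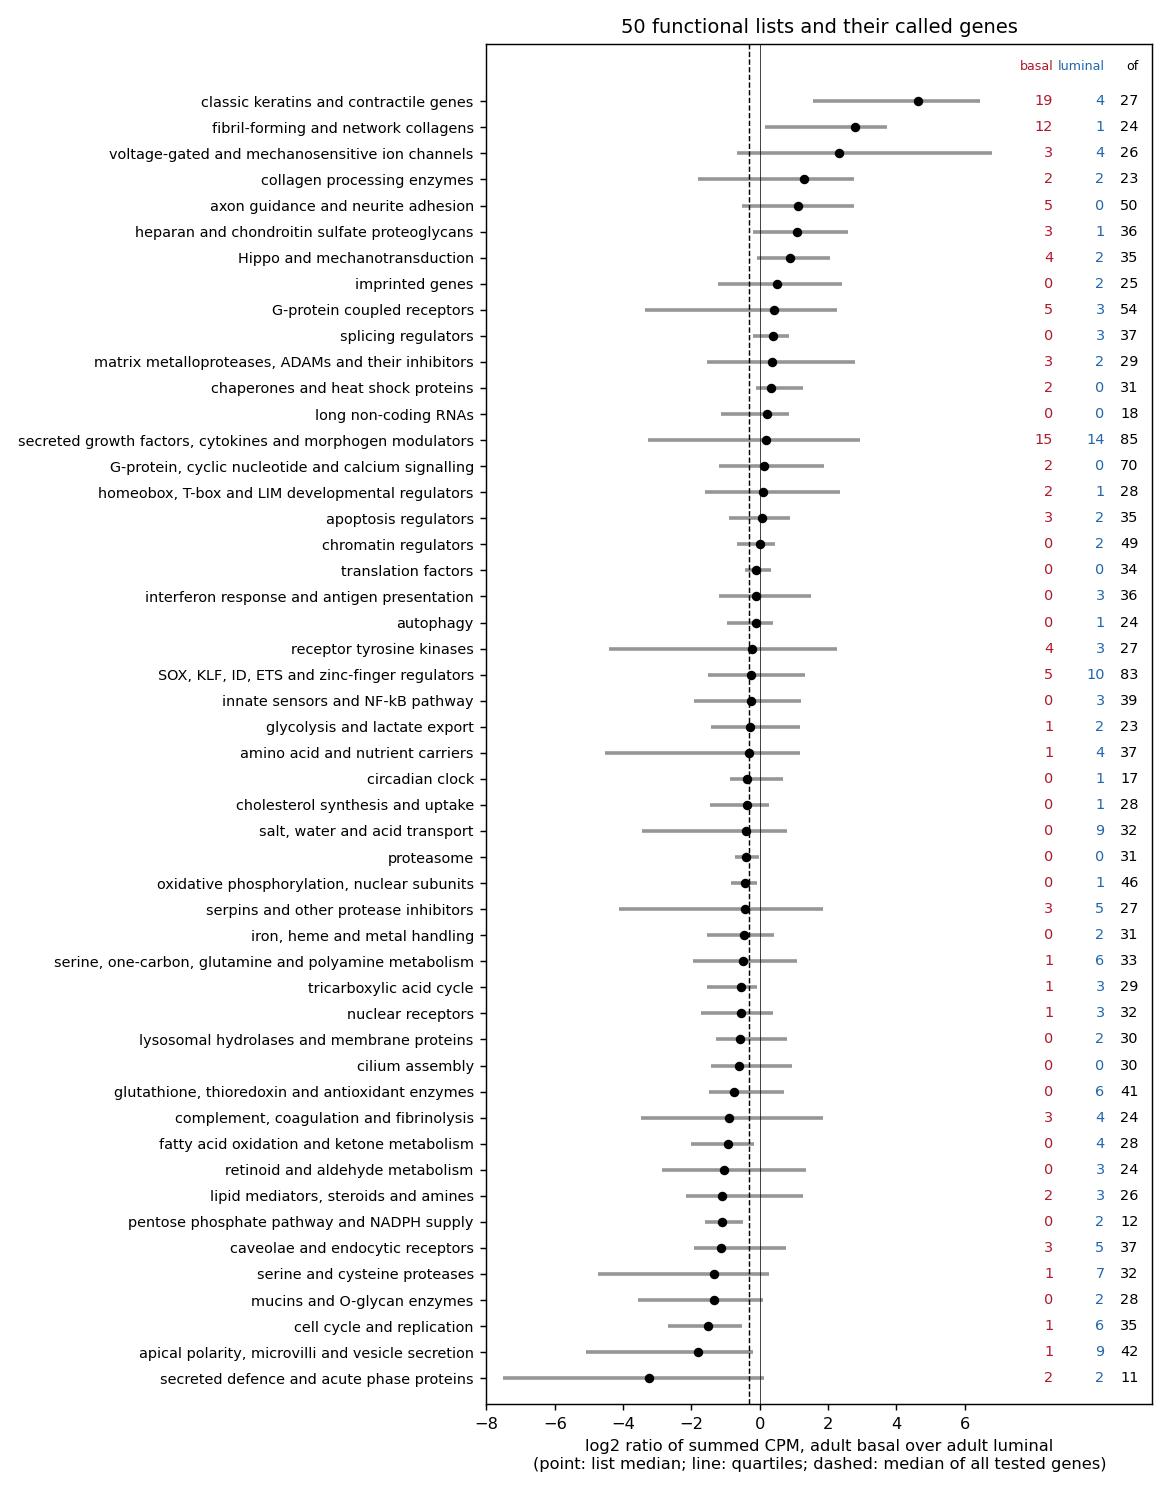
Median (point) and quartiles (line) of the log2 ratio of summed CPM, adult basal (n = 85 cells) over adult luminal (n = 39 cells), for the tested genes of 50 of the 51 functional lists, with the numbers of genes called higher in basal (red) and luminal cells (blue) and tested (black) at the right. The dashed line is the median of all tested genes, -0.32. Collagens lie to its right with 12 of 24 genes called basal, and apical polarity to its left with 9 of 42 genes called luminal.

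Collagens had the highest median outside the classic list. Of 24 fibril-forming and network collagen genes tested, 12 were higher in basal cells and 1 in luminal cells, and the median log2 ratio was 2.79. A single basal cell detected, as lowest, median and highest, 4.17%, 33.3% and 58.3% of the genes listed, and a single luminal cell 0%, 4.17% and 50.0%. The sorts overlapped through a few luminal cells with many collagens. After the 8 doubted cells were left out the counts were again 12 and 1, and the median was 5.89. Col1a1 and Col3a1 of this list were among the fibroblast markers by which cells were left out, so this rise was partly built in. The basal genes comprised 4 chains of collagen IV, the network of the basement membrane, of which Col4a1 is given above. Col4a2, the partner chain of Col4a1, had reads in 78.8% of basal and 10.3% of luminal cells, with a log2 ratio of 3.97 (3.88 to 4.07), and 5.74 without luminal cell 35 and 11.98 (10.44 to 14.26) without the doubted cells. Col4a5 was found in 48.2% of basal and 17.9% of luminal cells, a log2 ratio of 2.6 (2.46 to 2.74), and 3.22 without luminal cell 35. Col4a6, which lies next to Col4a5 on the X chromosome, was seen in 70.6% of basal and 12.8% of luminal cells, and its log2 ratio was 3.93 (3.79 to 4.08), and 5.11 without luminal cell 35 and 5.46 without the doubted cells. Col7a1, the collagen of anchoring fibrils, had reads in 25.9% of basal and 0 of 39 luminal cells, with a log2 ratio of 7.52 (6.29 to 9.14), and 9.8 without luminal cell 2. Col14a1, which coats fibrils, was found in 75.3% of basal and 12.8% of luminal cells, a log2 ratio of 2.62 (2.55 to 2.7), and 3.39 without luminal cell 26 and 11.91 (10.05 to 14.95) without the doubted cells. Col12a1, of the same fibril-associated class, was seen in 49.4% of basal and 5.13% of luminal cells, and its log2 ratio was 3.66 (3.45 to 3.87), and 4.65 without luminal cell 11 and 6.94 without the doubted cells. Col5a2, Col9a2, Col16a1, Col17a1 and Col18a1 were the others. Col8a1, a short-chain network collagen and the luminal gene of the list, had reads in 1.18% of basal and 43.6% of luminal cells, with a log2 ratio of -9.16 (-10.48 to -8.12), with all basal reads in basal cell 39. The fibrillar gene Col1a1 stood at 2.55 CPM in basal and 64.1 CPM in luminal cells but was found in only 10.3% of luminal cells. Col3a1 stood at 3.47 and 358 CPM and was found in 15.4% of luminal cells. Both are fibroblast markers, and 5 luminal cells held at least 3 of these. Col9a2 lost the call with thinning to 100000 reads, and Col7a1, Col9a2 and Col16a1 with detection at 5 reads.

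Other matrix lists were more mixed. Of 23 collagen processing genes, 2 were higher in basal cells, Sparc and P4ha1, and 2 in luminal cells. P4ha1, a catalytic subunit of collagen prolyl hydroxylase, was found in 48.2% of basal and 20.5% of luminal cells, a log2 ratio of 2.28 (2.17 to 2.4), and 3.19 without luminal cell 8. P4ha2, the alternative subunit, was seen in 3.53% of basal and 25.6% of luminal cells, and its log2 ratio was -3.17 (-3.37 to -2.97), and -2.1 without luminal cell 7 and -4.14 without basal cell 25. The subunits differed in opposite directions. Tgm2, a transglutaminase that crosslinks proteins, had reads in 22.4% of basal and 82.1% of luminal cells, with a log2 ratio of -2.25 (-2.34 to -2.17). The median was 1.29. For collagen processing the basal and luminal calls numbered 3 and 2, with a median of 3.29, without the doubted cells, 4 and 2, with a median of 0.48, with the 48 gene-rich basal cells, and 3 and 1 with TMM scaling. Of 29 metalloproteases, ADAMs and inhibitors, 3 were basal and 2 luminal. Mmp2, a secreted gelatinase, was found in 40.0% of basal and 10.3% of luminal cells, a log2 ratio of 2.64 (2.53 to 2.76), and 3.55 without luminal cell 5 and at least 10.14 without the doubted cells. Adamts1, a secreted protease of proteoglycans, was seen in 81.2% of basal and 12.8% of luminal cells, and its log2 ratio was 3.55 (3.5 to 3.6), and 4.61 without luminal cell 27 and 7.03 without the doubted cells. Adamts18 was the other basal gene, and the luminal ones were both anchored in the membrane. Adam10, a sheddase of Notch and ERBB ligands, had reads in 7.06% of basal and 79.5% of luminal cells, with a log2 ratio of -4.29 (-4.47 to -4.12). Mmp15 was found in 0 of 85 basal and 30.8% of luminal cells, a log2 ratio of -7.74 or below. The median was 0.37. For these proteases and inhibitors the basal and luminal calls numbered 5 and 2, with a median of 3.21, without the doubted cells, and 4 and 2, with a median of -0.11, with the 48 gene-rich basal cells. Tgm2 lost the call with TMM scaling and with median-of-ratios scaling, P4ha1 without thinning, and P4ha2 and Mmp15 with detection at 5 reads.

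Among 36 proteoglycan genes, 3 were basal (Bgn, Fmod and Ext1) and 1 was luminal. Bgn, a small leucine-rich proteoglycan, was seen in 32.9% of basal and 7.69% of luminal cells, and its log2 ratio was 2.38 (2.23 to 2.52), and 3.25 without luminal cell 35 and at least 9.31 without the doubted cells. Fmod, of the same family, had reads in 27.1% of basal and 2.56% of luminal cells, with a log2 ratio of 3.95 (3.7 to 4.21), with all luminal reads in luminal cell 35 and at least 9.15 without the doubted cells. Sulf2, which trims sulfate from heparan sulfate, was found in 0 of 85 basal and 38.5% of luminal cells, a log2 ratio of -6.78 (-7.7 to -6.0), with all basal reads in basal cell 30. The median was 1.1. For proteoglycans the basal and luminal calls numbered 6 and 1, with a median of 2.61, without the doubted cells, and 5 and 2 with the 48 gene-rich basal cells. Dcn and Lum of this list were among the fibroblast markers by which cells were left out. Bgn, Fmod and Sulf2 lost their calls with detection at 5 reads.

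Genes better known from nerve and muscle were compared next. Of 50 axon guidance and neurite adhesion genes, 5 were higher in basal cells and 0 in luminal cells, with a median log2 ratio of 1.11, while the share of cells was higher in basal cells for 23 and in luminal cells for 27 of the 50. Besides Tenm2 they were Sema5a, Ctnnd2, Dpysl2 and Dpysl3. Sema5a, a membrane semaphorin, was seen in 32.9% of basal and 5.13% of luminal cells, and its log2 ratio was 2.76 (2.62 to 2.91), and 4.93 without luminal cell 33 and 9.69 (8.14 to 11.97) without the doubted cells. Ctnnd2, delta-catenin, had reads in 41.2% of basal and 12.8% of luminal cells, with a log2 ratio of 3.15 (3.06 to 3.24), and 4.35 without luminal cell 35 and 4.27 without the doubted cells. Dpysl3, a collapsin response mediator that binds the cytoskeleton, was found in 43.5% of basal and 10.3% of luminal cells, a log2 ratio of 2.57 (2.46 to 2.68), and 4.58 without luminal cell 35 and 10.16 (8.62 to 12.44) without the doubted cells. Dpysl2, its relative, was seen in 88.2% of basal and 30.8% of luminal cells, and its log2 ratio was 3.23 (3.19 to 3.27), and 5.99 without the doubted cells. Single basal cells detected 1.67%, 13.3% and 35.0% of the listed genes as lowest, median and highest, and luminal cells 3.33%, 8.33% and 26.7%, so the sorts overlapped. For axon guidance the basal and luminal calls numbered 8 and 0, with a median of 1.83, without the doubted cells. Of 26 ion channel genes, 3 were higher in basal and 4 in luminal cells, and the median was 2.32. Cacna2d1, a calcium channel subunit, was found in 60.0% (48.8 to 70.5) of basal cells and had no luminal read, a log2 ratio of at least 11.12. Kcnma1, the large-conductance calcium-activated potassium channel of smooth muscle, had reads in 24.7% of basal and 0 of 39 luminal cells, with a log2 ratio of 12.11 (9.63 to 17.41). Scn7a was the remaining basal channel. Piezo2, a channel opened by force, was found in 2.35% of basal and 71.8% of luminal cells, a log2 ratio of -9.0 (-9.95 to -8.19), and -10.26 without basal cell 7. Kcnk1, a potassium leak channel, was seen in 9.41% of basal and 56.4% of luminal cells, and its log2 ratio was -2.13 (-2.25 to -2.01). For ion channels the basal and luminal calls numbered 3 and 4, with a median of 2.92, without the doubted cells, and 7 and 4 with the 48 gene-rich basal cells. Kcnn4 and Trpc6 were the other luminal channels, and Kcnma1, Kcnn4 and Trpc6 were each found in fewer than 50% of the cells of their sort. Kcnk1 lost the call with TMM scaling, with median-of-ratios scaling and with the 48 gene-rich basal cells, and Sema5a and Trpc6 with detection at 5 reads.

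Signalling genes divided between the sorts. Of 85 secreted growth factors and morphogen modulators tested, 15 were higher in basal and 14 in luminal cells, and the median was 0.19. For secreted factors the basal and luminal calls numbered 21 and 12, with a median of 2.14, without the doubted cells. Nrg1, a neuregulin, the ligand of ERBB receptors, had reads in 54.1% of basal and 7.69% of luminal cells, with a log2 ratio of 4.59 (4.47 to 4.7), and 7.26 without luminal cell 35 and 7.03 without the doubted cells. Pdgfa, a platelet-derived growth factor chain, was found in 40.0% of basal and 2.56% of luminal cells, a log2 ratio of 5.97 (5.45 to 6.54), and 7.83 without luminal cell 35 and at least 9.01 without the doubted cells. Csf1, a growth factor of macrophages, was seen in 50.6% of basal and 17.9% of luminal cells, and its log2 ratio was 3.13 (3.02 to 3.25), and 3.72 without luminal cell 26. Dll1, a Notch ligand, had reads in 47.1% of basal and 2.56% of luminal cells, with a log2 ratio of 8.32 (7.27 to 9.63), and 10.08 without luminal cell 35 and at least 9.26 without the doubted cells. Of the called Wnt pathway genes named here, the inhibitors Wif1, Sfrp1 and Dkk3 were basal and the ligands Wnt4 and Wnt5a luminal. This is not a split of inhibitors against ligands. Other ligands of the list, such as Wnt6, Wnt10a and Wnt11, are not described here, and the study's basal signature from earlier bulk data holds them. Wif1 was found in 50.6% of basal and 2.56% of luminal cells, a log2 ratio of 4.5 (4.32 to 4.69), with all luminal reads in luminal cell 35 and at least 10.66 without the doubted cells. Sfrp1 was seen in 25.9% of basal and 0 of 39 luminal cells, and its log2 ratio was 9.57 (8.02 to 11.85). Wnt4, which acts downstream of progesterone, had reads in 1.18% of basal and 43.6% of luminal cells, with a log2 ratio of -6.43 (-7.15 to -5.8), and -9.73 without basal cell 20. Wnt5a was found in 8.24% of basal and 64.1% of luminal cells, a log2 ratio of -2.61 (-2.71 to -2.52), and -4.65 without basal cell 93. Pdgfa and Sfrp1 lost their calls with detection at 5 reads.

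Luminal factors included further ERBB ligands and cytokines. Btc, betacellulin, was seen in 0 of 85 basal and 28.2% of luminal cells, and its log2 ratio was -9.01 or below. Il33, an alarmin, had reads in 1.18% of basal and 43.6% of luminal cells, with a log2 ratio of -11.36 (-13.24 to -10.003), with all basal reads in basal cell 91. Inhbb, an activin subunit, was found in 1.18% of basal and 38.5% of luminal cells, a log2 ratio of -6.14 (-7.02 to -5.38), with all basal reads in basal cell 5. With Areg, these place ERBB ligands on both sides, Nrg1 in basal and Areg and Btc in luminal cells. Of 27 receptor tyrosine kinases, 4 were higher in basal and 3 in luminal cells, and ERBB receptors divided too. Egfr, the receptor of amphiregulin, was seen in 31.8% of basal and 2.56% of luminal cells, and its log2 ratio was 6.22 (5.75 to 6.74), and 9.05 without luminal cell 22. Erbb2, which has no ligand of its own, had reads in 2.35% of basal and 28.2% of luminal cells, with a log2 ratio of -2.12 (-2.31 to -1.94), and -6.14 without basal cell 11. Erbb3, a receptor of neuregulins, was found in 1.18% of basal and 33.3% of luminal cells, a log2 ratio of -6.47 (-7.14 to -5.86), with all basal reads in basal cell 93. Igf1r was seen in 57.6% of basal and 20.5% of luminal cells, and its log2 ratio was 2.37 (2.27 to 2.47), and 3.01 without luminal cell 32. Kit, a receptor of stem cell factor, had reads in 0 of 85 basal and 33.3% of luminal cells, with a log2 ratio of -9.13 (-11.01 to -7.78), and -10.1 without basal cell 36. Axl and Ntrk3 were the other basal receptors. The median was -0.22. For receptor tyrosine kinases the basal and luminal calls numbered 4 and 3, with a median of 0.88, without the doubted cells. Pdgfra, Kdr and Tie1 of this list were among the markers by which cells were left out. Erbb2 lost the call with TMM scaling, with median-of-ratios scaling and with the 48 gene-rich basal cells, Erbb2 and Axl with the mean of single-cell CPM, and Igf1r without thinning. Inhbb, Egfr, Erbb2 and Ntrk3 did so with detection at 5 reads.

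Receptors coupled to G-proteins were compared together with the pathways below them. Of 54 such receptors, 5 were basal (Oxtr, Lgr5, Fzd7, Adgrg2 and Adgra3) and 3 luminal (Agtr1a, Lpar4 and Gprc5a). Oxtr, the oxytocin receptor, was found in 78.8% of basal and 10.3% of luminal cells, a log2 ratio of 5.12 (5.0 to 5.24), and 8.39 without luminal cell 8. Lgr5, a receptor of R-spondins, was seen in 32.9% of basal and 5.13% of luminal cells, and its log2 ratio was 6.83 (6.35 to 7.36), and 8.32 without luminal cell 6. Agtr1a, an angiotensin receptor, had reads in 0 of 85 basal and 41.0% of luminal cells, with a log2 ratio of -10.25 or below. The median was 0.41. For these receptors the basal and luminal calls numbered 6 and 2, with a median of 1.46, without the doubted cells, and 8 and 3 with the 48 gene-rich basal cells. Downstream of these receptors, 2 of 70 G-protein, cyclic nucleotide and calcium genes were basal, 2.86% beside the background of 1.92%, and 0 luminal. For this pathway the basal and luminal calls numbered 3 and 0, with a median of 0.72, without the doubted cells, and 6 and 0 with the 48 gene-rich basal cells. Prkg1, a kinase switched on by cyclic GMP, was found in 37.6% of basal and 12.8% of luminal cells, a log2 ratio of 3.17 (3.06 to 3.28), and 4.3 without luminal cell 35 and 4.13 without the doubted cells. Plce1, a phospholipase C, was seen in 40.0% of basal and 10.3% of luminal cells, and its log2 ratio was 4.28 (4.01 to 4.56), and 6.05 without luminal cell 5 and 5.93 without the doubted cells. Of 35 Hippo and mechanotransduction genes, 4 were basal and 2 luminal. Wwtr1, which codes for TAZ, a coactivator of TEAD factors, had reads in 63.5% of basal and 38.5% of luminal cells, with a log2 ratio of 2.37 (2.3 to 2.43). Ccn2, a target gene of YAP and TAZ, was found in 47.1% of basal and 15.4% of luminal cells, a log2 ratio of 2.91 (2.8 to 3.03), and 3.51 without luminal cell 35 and 3.56 without the doubted cells. Ankrd1, another target, was seen in 32.9% of basal and 0 of 39 luminal cells, and its log2 ratio was at least 10.61. Basal cell 80 held 43.6% of the basal reads of Ankrd1. Tns1 was the other basal gene, and Ptk2 and Vgll4 were luminal. For Hippo genes the basal and luminal calls numbered 7 and 2 without the doubted cells, and 7 and 1 with the 48 gene-rich basal cells. Gprc5a lost the call without the doubted cells, Vgll4 with median-of-ratios scaling, with the 48 gene-rich basal cells and without the fullest cell of each sort, and Adgra3 and Vgll4 with the mean of single-cell CPM. Adgrg2, Adgra3 and Wwtr1 did so without thinning, Gprc5a and Wwtr1 with thinning to 100000 reads, and Fzd7, Adgrg2, Lpar4, Gprc5a, Plce1, Ccn2, Tns1, Ptk2 and Vgll4 with detection at 5 reads.

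On the luminal side, genes of the apical surface and of transport were called more often than the background of 5.38%, in lists chosen with earlier results known. Of 42 genes of apical polarity, microvilli and vesicle secretion, 9 were higher in luminal and 1 in basal cells, and the median log2 ratio was -1.8. Luminal cells detected 9.52%, 35.7% and 54.8% of the listed genes as lowest, median and highest, and basal cells 2.38%, 16.7% and 35.7%, so the sorts overlapped. Rab25, a GTPase of apical recycling, had reads in 4.71% of basal and 71.8% of luminal cells, with a log2 ratio of -3.04 (-3.17 to -2.91), and -4.06 without basal cell 77. Cgn, cingulin of tight junctions, was found in 1.18% of basal and 56.4% of luminal cells, a log2 ratio of -6.11 (-6.46 to -5.77), with all basal reads in basal cell 3. Crb3, an apical polarity protein, was seen in 1.18% of basal and 30.8% of luminal cells, and its log2 ratio was -3.96 (-4.36 to -3.59), and -5.62 without basal cell 30. Prom1, prominin 1 of microvilli, had reads in 1.18% of basal and 35.9% of luminal cells, with a log2 ratio of -8.64 (-10.26 to -7.41), with all basal reads in basal cell 62. Mal2, Myo5c, Epb41l5, Rab17 and Marveld2 were the others. Msn, moesin, which ties actin to the membrane and was the basal gene, was found in 83.5% of basal and 43.6% of luminal cells, a log2 ratio of 2.41 (2.36 to 2.47), and 3.05 without the doubted cells. For polarity genes the basal and luminal calls numbered 1 and 14 without the doubted cells. Of 32 genes of salt, water and acid transport, 9 were luminal and 0 basal, although the median, -0.4, was close to that of all genes. Aqp5, a water channel, was seen in 0 of 85 basal and 35.9% of luminal cells, and its log2 ratio was -9.38 or below. Slc12a2, a sodium, potassium and chloride carrier, had reads in 41.2% of basal and 74.4% of luminal cells, with a log2 ratio of -2.08 (-2.12 to -2.03). Atp1b1, a sodium pump subunit, was found in 1.18% of basal and 48.7% of luminal cells, a log2 ratio of -9.28 (-10.91 to -8.06), with all basal reads in basal cell 64. The others were Clcn3, Car2, Car8, Scnn1a, Atp6v1b1 and Atp6v1c2. For this transport the basal and luminal calls numbered 1 and 9 without the doubted cells, and 1 and 9, with a median of -1.14, with the 48 gene-rich basal cells. Atp6v1b1 lost the call without the doubted cells, Slc12a2 and Car8 with TMM scaling and with median-of-ratios scaling, Car8 with the 48 gene-rich basal cells, and Crb3, Prom1, Epb41l5, Rab17, Marveld2, Aqp5, Scnn1a and Atp6v1b1 with detection at 5 reads.

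Proteases and their inhibitors had calls in both sorts. Of 32 serine and cysteine proteases, 7 were luminal and 1 basal, with a median of -1.35. Tmprss2, bound to the membrane like Tmprss13, was seen in 2.35% of basal and 51.3% of luminal cells, and its log2 ratio was -3.84 (-3.99 to -3.7), and -7.86 without basal cell 39. St14, matriptase, also a membrane protease, had reads in 9.41% of basal and 51.3% of luminal cells, with a log2 ratio of -3.67 (-3.9 to -3.45). Prss23, a secreted protease and the basal gene, was found in 70.6% of basal and 17.9% of luminal cells, a log2 ratio of 4.45 (4.31 to 4.6), and 5.99 without the doubted cells. For these proteases the basal and luminal calls numbered 4 and 6 without the doubted cells, 2 and 7 with the 48 gene-rich basal cells, and 2 and 7 with TMM scaling. Of 27 inhibitors, 5 were luminal and 3 basal. Spint1, the inhibitor of matriptase, was seen in 10.6% of basal and 74.4% of luminal cells, and its log2 ratio was -2.62 (-2.76 to -2.48), and -3.32 without basal cell 18. Wfdc2 had reads in 17.6% of basal and 79.5% of luminal cells, with a log2 ratio of -3.33 (-3.41 to -3.26), and -4.25 without basal cell 36. Slpi, a secreted antiprotease, was found in 94.1% of basal and 64.1% of luminal cells, a log2 ratio of 2.77 (2.75 to 2.79). Serpina3n, an antichymotrypsin relative, was seen in 55.3% of basal and 7.69% of luminal cells, and its log2 ratio was 5.32 (5.12 to 5.54), and 5.99 without luminal cell 33 and at least 11.04 without the doubted cells. Mouse Serpina3 genes are close copies, so reads may be divided among them. The median of the inhibitors was -0.43. For inhibitors the basal and luminal calls numbered 5 and 5, with a median of 1.52, without the doubted cells. St14 lost the call with detection at 5 reads.

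Of 24 complement and coagulation genes, 3 were basal (Pros1, Gas6 and Thbs1) and 4 luminal (Clu, Cd55, F3 and Vwf). Pros1, protein S, an anticoagulant, had reads in 64.7% of basal and 23.1% of luminal cells, with a log2 ratio of 2.57 (2.48 to 2.66), and 3.34 without luminal cell 5 and 4.58 without the doubted cells. Gas6, a ligand of Axl, was found in 40.0% of basal and 15.4% of luminal cells, a log2 ratio of 2.57 (2.4 to 2.75), and 3.37 without luminal cell 23. Cd55, a complement regulator, was seen in 0 of 85 basal and 53.8% of luminal cells, and its log2 ratio was -11.05 or below. F3, tissue factor, had reads in 17.6% of basal and 61.5% of luminal cells, with a log2 ratio of -3.39 (-3.46 to -3.32). Vwf is as a rule an endothelial gene, and 2 luminal cells held endothelial markers. Its luminal call held without the doubted cells, which include these 2 cells, and the source of its reads was not tested. The median was -0.9. For complement and coagulation the basal and luminal calls numbered 4 and 4, with a median of 0.53, without the doubted cells, and 5 and 4 with the 48 gene-rich basal cells. Gas6 and Vwf lost their calls with detection at 5 reads.

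Metabolic genes differed in single enzymes. Fatty acid oxidation and ketone metabolism had 4 of 28 genes called luminal and 0 basal, with a median of -0.93. Cpt1a, which brings fatty acids into mitochondria, was found in 12.9% of basal and 59.0% of luminal cells, a log2 ratio of -2.37 (-2.48 to -2.27). Acaa2, a thiolase, was seen in 22.4% of basal and 69.2% of luminal cells, and its log2 ratio was -2.5 (-2.58 to -2.44). Bdh1 of ketone metabolism was also among them. Of 41 glutathione and antioxidant genes, 6 were luminal and 0 basal. Gpx3, a secreted peroxidase, had reads in 3.53% of basal and 79.5% of luminal cells, with a log2 ratio of -8.04 (-8.23 to -7.86), and -9.07 without basal cell 76. Gsr, glutathione reductase, was found in 20.0% of basal and 82.1% of luminal cells, a log2 ratio of -2.72 (-2.81 to -2.63), and -3.65 without basal cell 30. For antioxidant genes the basal and luminal calls numbered 2 and 6 without the doubted cells, 1 and 5 with the 48 gene-rich basal cells, and 1 and 6 with TMM scaling. Of 33 genes of serine, folate, glutamine and polyamine metabolism, 6 were luminal and 1 basal. Glul, glutamine synthetase, was seen in 9.41% of basal and 84.6% of luminal cells, and its log2 ratio was -3.47 (-3.6 to -3.35), and -4.64 without basal cell 19 and -4.76 without the doubted cells. Phgdh, which opens serine synthesis, had reads in 4.71% of basal and 46.2% of luminal cells, with a log2 ratio of -3.84 (-4.12 to -3.58), and -4.63 without basal cell 67. Ckb, a creatine kinase and the basal gene, was found in 31.8% of basal and 2.56% of luminal cells, a log2 ratio of 4.12 (3.7 to 4.56), and 5.95 without luminal cell 11 and 6.42 without the doubted cells. Cpt1a lost the call with the mean of single-cell CPM, and Bdh1, Phgdh and Ckb with detection at 5 reads.

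Sugar metabolism had calls on both sides. Of 23 glycolysis genes 1 was basal and 2 luminal, and the median was -0.28. Pfkp, a phosphofructokinase isoform, was seen in 55.3% of basal and 23.1% of luminal cells, and its log2 ratio was 3.07 (2.96 to 3.19). Aldoc, an aldolase isoform, had reads in 4.71% of basal and 66.7% of luminal cells, with a log2 ratio of -5.06 (-5.21 to -4.91), and -5.86 without basal cell 3. For glycolysis the basal and luminal calls numbered 1 and 1 with TMM scaling. Pfkfb3 was the other luminal gene. Of 29 genes of the tricarboxylic acid cycle 1 was basal and 3 luminal. Pdk4, the kinase that shuts pyruvate dehydrogenase, was found in 37.6% of basal and 10.3% of luminal cells, a log2 ratio of 2.1 (2.01 to 2.19), and 3.69 without luminal cell 31. Idh2, an isocitrate dehydrogenase, was seen in 25.9% of basal and 53.8% of luminal cells, and its log2 ratio was -2.34 (-2.46 to -2.22). For the cycle the basal and luminal calls numbered 0 and 3 without the doubted cells, and 0 and 3 with the 48 gene-rich basal cells. Suclg2 and Got1 were the others. Pentose phosphate genes, 12 in number, had a median of -1.1 and the luminal genes G6pdx and Pgls. G6pdx, the first enzyme of that pathway, had reads in 7.06% of basal and 43.6% of luminal cells, with a log2 ratio of -2.57 (-2.7 to -2.44), and -4.83 without basal cell 22. For pentose phosphate genes the basal and luminal calls numbered 0 and 1 without the doubted cells, and 0 and 4 with the 48 gene-rich basal cells. In retinoid and aldehyde metabolism 3 of 24 genes were luminal and 0 basal. Aldh1a3, which makes retinoic acid, was found in 1.18% of basal and 25.6% of luminal cells, a log2 ratio of -11.35 (-16.65 to -8.87), and -10.04 (-15.34 to -7.55) without the doubted cells. Dhrs3, a retinal reductase, was seen in 9.41% of basal and 84.6% of luminal cells, and its log2 ratio was -4.49 (-4.59 to -4.4), and -5.14 without basal cell 76. For retinoid genes the basal and luminal calls numbered 0 and 2, with a median of -0.36, without the doubted cells. Pdk4, Pgls and Aldh1a3 lost their calls without the doubted cells, Pfkfb3 with TMM scaling and with median-of-ratios scaling, Pfkfb3 and Suclg2 with the mean of single-cell CPM, and Pdk4 with the luminal minimums for both sorts and with the 48 gene-rich basal cells. Pfkfb3, Pdk4, Pgls and Aldh1a3 did so with detection at 5 reads.

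Smaller metabolic lists are given next to the background shares of 1.92% and 5.38%. Of 31 iron and heme genes, Trf and Alad were luminal. Trf, the iron carrier transferrin, had reads in 34.1% of basal and 69.2% of luminal cells, with a log2 ratio of -3.61 (-3.64 to -3.57). For iron and heme genes the basal and luminal calls numbered 0 and 1 with the 48 gene-rich basal cells, and 0 and 1 with TMM scaling. Of 26 genes of lipid mediators, steroids and amines, 2 were basal (Pla2g7 and Plpp1) and 3 luminal (Tph1, Hsd17b4 and Ptgr1). Pla2g7, which breaks down platelet activating factor, was found in 21.2% of basal and 0 of 39 luminal cells, a log2 ratio of at least 10.05. Ptgr1, a prostaglandin reductase, was seen in 0 of 85 basal and 41.0% of luminal cells, and its log2 ratio was -7.64 (-8.45 to -6.94), and -10.004 without basal cell 30. Abcg1, a cholesterol exporter, was the luminal gene among 28 of cholesterol metabolism. Among 37 nutrient carriers 1 was basal and 4 were luminal. Slc1a5, a neutral amino acid carrier, had reads in 29.4% of basal and 5.13% of luminal cells, with a log2 ratio of 3.16 (2.85 to 3.48), and 4.25 without luminal cell 43 and 4.38 without the doubted cells. Slc7a2, a cationic amino acid carrier, was found in 17.6% of basal and 71.8% of luminal cells, a log2 ratio of -4.35 (-4.45 to -4.26). For nutrient carriers the basal and luminal calls numbered 2 and 4 without the doubted cells, and 2 and 4 with TMM scaling. Alad and Hsd17b4 lost their calls with TMM scaling and with median-of-ratios scaling, Hsd17b4 with the mean of single-cell CPM, Alad with the 48 gene-rich basal cells, and Plpp1 and Slc1a5 without thinning. Alad, Pla2g7, Plpp1, Hsd17b4 and Slc1a5 did so with detection at 5 reads.

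Defence genes had calls in both sorts. Of 36 interferon and antigen presentation genes, 3 were luminal and 0 basal. For interferon genes the basal and luminal calls numbered 3 and 3 without the doubted cells. Iigp1, a GTPase induced by interferon, was seen in 0 of 85 basal and 59.0% of luminal cells, and its log2 ratio was -12.27 or below. Psmb8, an immunoproteasome subunit, had reads in 15.3% of basal and 82.1% of luminal cells, with a log2 ratio of -3.16 (-3.24 to -3.09), and -3.81 without basal cell 13. Psmb9, another such subunit, was found in 2.35% of basal and 38.5% of luminal cells, a log2 ratio of -3.76 (-4.07 to -3.47), and -5.26 without basal cell 69. Of 39 innate immune genes, Tlr4, Il17re and Tnfaip2 were luminal and 0 basal. Il17re, a receptor subunit of interleukin 17, was seen in 2.35% of basal and 41.0% of luminal cells, and its log2 ratio was -5.78 (-6.34 to -5.28), and -8.75 without basal cell 62. For innate immune genes the basal and luminal calls numbered 1 and 4 without the doubted cells. Every basal read of Tnfaip2 came from basal cell 19, which held immune markers. Of 11 secreted defence genes 2 were luminal (Hp and Lbp) and 2 basal (Apoe and Chil1). Hp, haptoglobin, had reads in 0 of 85 basal and 23.1% of luminal cells, with a log2 ratio of -10.04 or below. Apoe, apolipoprotein E, was found in 90.6% of basal and 33.3% of luminal cells, a log2 ratio of 3.54 (3.46 to 3.61), and 4.46 without luminal cell 35 and 4.74 without the doubted cells. For secreted defence genes the basal and luminal calls numbered 1 and 2 without the doubted cells, and 2 and 2, with a median of -6.61, with the 48 gene-rich basal cells. Muc15, a membrane mucin, and St3gal1, a sialyltransferase, were luminal among 28 mucin and O-glycan genes. Muc15 was seen in 2.35% of basal and 41.0% of luminal cells, and its log2 ratio was -7.16 (-7.5 to -6.83), and -10.41 without basal cell 17. For mucin genes the basal and luminal calls numbered 0 and 4 without the doubted cells. Chil1 lost the call without the doubted cells and without thinning, Lbp with the mean of single-cell CPM, and Psmb9, Tlr4, Tnfaip2, Hp, Lbp and St3gal1 with detection at 5 reads.

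Gene regulators were compared as groups. Of 83 SOX, KLF, ID, ETS and zinc-finger genes, 5 were basal (Trp63, Snai2, Id4, Egr2 and Tfap2c) and 10 luminal, Cited1 and Foxa1 among them. Trp63, which codes for p63, had reads in 44.7% of basal and 2.56% of luminal cells, with a log2 ratio of 2.71 (2.56 to 2.86), and 9.28 without luminal cell 35 and 9.05 without the doubted cells. Snai2, a zinc-finger repressor, was found in 34.1% of basal and 2.56% of luminal cells, a log2 ratio of 7.52 (6.74 to 8.43), and 10.18 without luminal cell 43 and 10.93 (8.45 to 16.24) without the doubted cells. Id4, an inhibitor of helix-loop-helix factors, was seen in 31.8% of basal and 0 of 39 luminal cells, and its log2 ratio was at least 7.77. Ehf, an ETS factor of epithelia, had reads in 1.18% of basal and 61.5% of luminal cells, with a log2 ratio of -10.8 (-12.11 to -9.75), with all basal reads in basal cell 50. Elf3, another one, was found in 7.06% of basal and 51.3% of luminal cells, a log2 ratio of -2.43 (-2.54 to -2.33), and -4.06 without basal cell 80. Grhl1, a grainyhead factor, was seen in 3.53% of basal and 35.9% of luminal cells, and its log2 ratio was -6.41 (-7.2 to -5.73), and -7.29 without basal cell 2. For these regulators the basal and luminal calls numbered 6 and 9, with a median of 0.33, without the doubted cells. Among 28 homeobox and related genes, 2 were basal, Tshz2 among them, and 1 was luminal, Msx2. Tshz2 had reads in 37.6% of basal and 5.13% of luminal cells, with a log2 ratio of 6.39 (5.85 to 6.98), and 7.24 without luminal cell 35 and at least 9.33 without the doubted cells. Msx2 was found in 0 of 85 basal and 20.5% of luminal cells, a log2 ratio of -7.59 or below. For homeobox genes the basal and luminal calls numbered 2 and 1, with a median of 0.98, without the doubted cells. Of 32 nuclear receptors, Nr4a2 was basal and Esr1, Esrrb and Nr1d1 were luminal. Nr4a2, an immediate early gene, was seen in 43.5% of basal and 17.9% of luminal cells, and its log2 ratio was 2.74 (2.6 to 2.88), and 4.55 without the doubted cells. Esr1 had reads in 2.35% of basal and 64.1% of luminal cells, with a log2 ratio of -4.94 (-5.2 to -4.69), and -8.65 without basal cell 88. Nr1d1 lost the call without the doubted cells and with the 48 gene-rich basal cells, Egr2 and Tfap2c without thinning, and Id4, Grhl1, Msx2, Nr4a2, Esrrb and Nr1d1 with detection at 5 reads.

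RNA, chromatin and cell division regulators were compared in the same way. Of 37 splicing regulators, 3 were luminal (Rbm47, Esrp1 and Ptbp3) and 0 basal, while the median, 0.38, was above that of all genes. Esrp1, a splicing factor of epithelial cells, was found in 4.71% of basal and 43.6% of luminal cells, a log2 ratio of -2.78 (-2.92 to -2.64), and -5.35 without basal cell 67. Of 49 chromatin regulators, Hdac11 and H1f0 were luminal and 0 basal. H1f0, a linker histone, was seen in 3.53% of basal and 28.2% of luminal cells, and its log2 ratio was -2.53 (-2.83 to -2.24), and -3.72 without basal cell 61. For chromatin the basal and luminal calls numbered 1 and 3 without the doubted cells, and 1 and 2 with the 48 gene-rich basal cells. Of 35 apoptosis regulators 3 were basal (Perp, Dapk2 and Casp4) and 2 luminal (Bik and Ei24). Perp, a p53 target that also serves desmosomes, had reads in 80.0% of basal and 30.8% of luminal cells, with a log2 ratio of 3.65 (3.57 to 3.73). Bik, which holds a BH3 domain alone, was found in 0 of 85 basal and 30.8% of luminal cells, a log2 ratio of -8.82 or below. For apoptosis the basal and luminal calls numbered 3 and 1 with the 48 gene-rich basal cells. Of 35 cell cycle and replication genes 1 was basal and 6 luminal, with a median of -1.52. Ccnd2, cyclin D2, was seen in 50.6% of basal and 10.3% of luminal cells, and its log2 ratio was 2.86 (2.76 to 2.97), and 3.91 without luminal cell 35 and at least 10.71 without the doubted cells. Cdkn1b, an inhibitor of the cycle, had reads in 9.41% of basal and 43.6% of luminal cells, with a log2 ratio of -2.6 (-2.86 to -2.34). Of the basal reads of Top2a, a luminal call and a marker of dividing cells, 90.9% lay in basal cell 36. Of 31 chaperones, Hspa2 and Hspb1 were basal and 0 luminal, and the median was 0.34. Hspb1, a small heat shock protein, was found in 58.8% of basal and 28.2% of luminal cells, a log2 ratio of 2.86 (2.69 to 3.04). For chaperones the basal and luminal calls numbered 4 and 0 without the doubted cells. Ptbp3 lost the call with TMM scaling and with median-of-ratios scaling, Ei24 with the 48 gene-rich basal cells, Casp4 without thinning, and Hdac11, H1f0, Casp4, Bik, Ei24 and Cdkn1b with detection at 5 reads.

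Genes of membrane traffic and some smaller lists were compared last. Of 37 genes of caveolae and endocytic receptors, 3 were basal, Cavin1 and Cavin2 among them, and 5 luminal, among them Rab25 and Sort1. Cavin1, a coat protein of caveolae, was seen in 89.4% of basal and 53.8% of luminal cells, and its log2 ratio was 2.0 (1.96 to 2.04), and 3.84 without the doubted cells. Sort1, a sorting receptor, had reads in 3.53% of basal and 46.2% of luminal cells, with a log2 ratio of -2.76 (-2.97 to -2.56), and -4.5 without basal cell 25. For caveolae and endocytosis the basal and luminal calls numbered 5 and 6 without the doubted cells. Glb1 and Lipa were luminal among 30 lysosomal genes, and Wipi1 among 24 of autophagy. Lipa, the acid lipase, was found in 5.88% of basal and 41.0% of luminal cells, a log2 ratio of -5.16 (-5.31 to -5.01). For lysosomal genes the basal and luminal calls numbered 0 and 1 without the doubted cells, and 0 and 4 with the 48 gene-rich basal cells. Of 25 imprinted genes, Grb10 and Ppp1r9a were luminal, and of 17 clock genes Nr1d1 was. Grb10, an adaptor that damps insulin signalling, was seen in 2.35% of basal and 25.6% of luminal cells, and its log2 ratio was -4.04 (-4.41 to -3.69), and -5.6 without basal cell 9 and -2.9 without the doubted cells. For imprinted genes the basal and luminal calls numbered 0 and 1 without the doubted cells, and 0 and 1 with TMM scaling. For clock genes the basal and luminal calls numbered 0 and 0 without the doubted cells, and 0 and 0 with the 48 gene-rich basal cells. Glb1, Wipi1 and Grb10 lost their calls without the doubted cells, Ppp1r9a with TMM scaling and with median-of-ratios scaling, Cavin1 and Ppp1r9a with the mean of single-cell CPM, and Cavin1 with the 48 gene-rich basal cells. Sort1, Glb1, Wipi1, Grb10 and Ppp1r9a did so with detection at 5 reads.

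Lists of genes that every cell uses were detected less fully in basal cells, although their medians lay near that of all genes. Of 46 nuclear genes of oxidative phosphorylation, 0 were basal and 1 luminal (Atp5d), with a median log2 ratio of -0.42. Basal cells detected 23.9%, 65.2% and 93.5% of them as lowest, median and highest and luminal cells 50.0%, 87.0% and 97.8%. For oxidative phosphorylation the basal and luminal calls numbered 0 and 2 without the doubted cells, and 0 and 0 with TMM scaling. Proteasome genes were detected at 16.1%, 54.8% and 87.1% in basal and 32.3%, 77.4% and 100% in luminal cells, and translation factors, with a median log2 ratio of -0.1 and 0 of 34 called, at 44.1%, 73.5% and 97.1% and 58.8%, 91.2% and 97.1%. Against these, chaperones were detected at 21.9%, 59.4% and 87.5% and 34.4%, 59.4% and 81.2%. Neither sort had a called gene among 30 cilium genes and 18 long non-coding RNAs either. For cilium genes the basal and luminal calls numbered 1 and 1 with the 48 gene-rich basal cells. For long non-coding RNAs the basal and luminal calls numbered 0 and 1 with the 48 gene-rich basal cells. Atp5d lost the call with TMM scaling, with median-of-ratios scaling and with the mean of single-cell CPM.

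**Figure D5:**
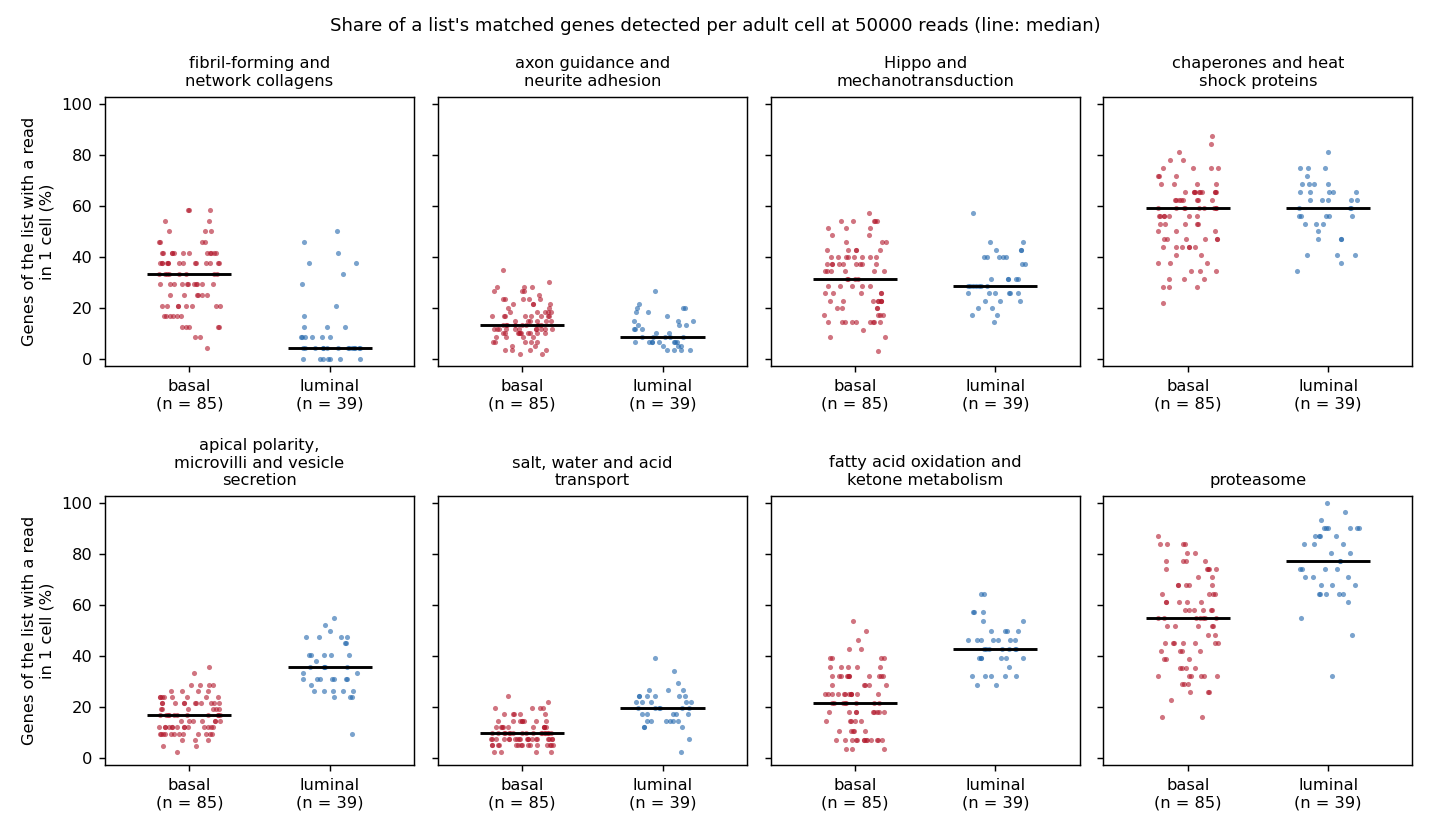
Share of a list's genes with a read in 1 adult cell (y axis, %) at 50000 reads per cell, for 8 lists, in basal (red, n = 85) and luminal cells (blue, n = 39). Points are cells and black lines medians. The luminal median for collagens is 4.17%, and the sorts overlap in every list. Proteasome genes, none of which was called, have medians of 54.8% in basal and 77.4% in luminal cells.

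A core of genes was common to both sorts. At the common depth 269 genes were detected in at least 80% of the cells of both. The 10 genes with log2 ratios within 0.5 of 0 and the highest shares were each found in every one of the 124 cells. They included Actb, the cytoskeletal actin, at 11966 CPM in basal and 8605 CPM in luminal cells, the translation factor Eef1a1 at 2951 and 4100.1 CPM, the chaperone Hsp90ab1 at 4384 and 3894 CPM and the nuclear RNA Malat1 at 31297 and 24833 CPM, besides Dynll1 and Hspa8. The others were Gm10335, Gm21399, Gm9794 and Mir682, which are predicted genes or short loci whose reads may come from near-identical copies elsewhere, and are uncertain.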

How the data were processed

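Single cells of mouse mammary gland had been captured, reverse transcribed and sequenced by the authors, who inspected capture sites by eye, so no doublet caller was run here. The deposited values are raw counts of reads per gene, made by the authors with Subread 1.4.6 and featureCounts against mm10. No unique molecular identifiers were used, so reads include amplified copies of the same molecule. The intervals of ratios therefore cover the counting of reads only, and neither the counting of molecules nor the spread between cells.

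The RefSeq table of GRCm38.p6 named 25275 of the 27179 gene IDs. Unnamed genes (1.16% of basal and 1.53% of luminal reads), 15 mitochondrial genes (7.81% and 8.35%) and 157 ribosomal genes (1.90% and 2.08%) were left out, and 25103 remained. Cells were filtered as the report states. Genes with at least 1 CPM in at least 3 retained adult cells were tested for size (13279). Shares used 1 or more reads after thinning each cell to 50000 reads (seed 20171120), and ratios used summed counts scaled to CPM. Intervals are at 95% (Clopper-Pearson for shares, exact conditional for ratios), and a count of 0 was set to a floor of 3 over the sort (3 reads for a ratio, 3 cells for a share, a smaller limit than the upper Clopper-Pearson bound). No animal is named per cell, so each sort is 1 sample and no p-value is given. Named genes were the 12 per sort with the largest share difference outside the classic list, the 10 most shared genes and the 2 per list and sort with the largest share difference. Further called members of a list were named after their values were seen. Members and the 51 lists were chosen with earlier results of these data known. Python 3.11.15, numpy 2.4.6, pandas 2.3.3, scipy 1.17.1, matplotlib 3.10.9 and, for TMM factors, edgeR 4.0.16 in R 4.3.3 were used. Results for a few genes and 1 list are not reported here.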

Additional observations from a re-analysis of the deposited data

How the results depend on the processing

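The main counts of 255 basal and 714 luminal genes depended most on the thresholds. Luminal counts were 1093 without thinning, 313 with detection at 5 reads, 1397 and 427 at log2 cuts of 1 and 3, and 1418 and 213 at share differences of 10 and 40 points. Basal counts were 472 and 91 at 10 and 40 points, and the CpG-rich share was 40.4% at 40 points. TMM gave 277 and 605 calls and median-of-ratios 278 and 595, and both moved the median of all genes, by 0.29 and 0.31. With basal cells limited to those holding at least the genes of the lowest luminal cell (48 cells) the counts were 371 and 717. Of the 148 called genes picked by the naming rule, 0 changed direction under the 11 settings run on them, and 89 of 1628 values lost the call. The settings of thinning, detection and the low-count filter leave the ratio of a gene as it is. TMM and median-of-ratios move it by less than the cut for a call. Under these settings no called gene could change direction. Only the settings that changed the cells or took the mean of single-cell CPM could show a change. Over all called genes, 91 basal and 403 luminal calls were lost with detection at 5 reads, 0 and 109 with TMM, 4 and 99 with those 48 basal cells, and 4 and 66 without the 8 doubted cells. Promoter features and gene span under other settings were added after seeing the data. No paired analysis was possible because the comparison comes from no test and equal title numbers name different cells.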

Other observations

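Of the called genes, 146 of 255 basal (57.3%) and 560 of 714 luminal (78.4%) were in none of the 51 lists. The same share over all tested genes was not worked out. These shares therefore do not show whether called genes were missed by the lists more or less often than other genes. The genes named here were chosen after their values were seen. On the basal side these included Nexn, an actin-binding protein (76.5% of basal and 7.69% of luminal cells), Palld, which organises actin bundles (69.4% and 7.69%), Mme, the membrane peptidase neprilysin (69.4% and 7.69%), Gas1, a membrane protein that binds hedgehog ligands (63.5% and 7.69%) and Synm, an intermediate filament protein of muscle (44.7% of basal cells and no luminal read). On the luminal side they included Alcam, an adhesion protein (2.35% and 79.5%), Ceacam1, an adhesion protein of apical membranes (0 of 85 basal cells at the common depth and 74.4% of luminal cells), Ly6d (1.18% and 71.8%), Lgals3, a galectin (1.18% and 66.7%) and the claudin Cldn3 (4.71% and 76.9%).

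Called genes that neighbour each other in the genome were also counted. Of 13255 pairs of neighbouring tested genes, 17 held 2 basal genes, 68 held 2 luminal genes and 20 held 1 of each. Over all tested genes 1.92% were called basal and 5.38% luminal. The number of pairs that these shares alone would give was not worked out, so the counts do not show whether called genes cluster. Runs of 3 included the milk casein genes Csn1s1, Csn2 and Csn1s2a, higher in luminal cells, and Col4a1, Col4a2 and Rab20, higher in basal cells. A run of Gm21149, Gm21190 and Speer4d consists of near-identical copies and is uncertain.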
